A study of Mus musculus with 41 samples.

Results

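The 37 genes described here encode sensors, chaperones, folding enzymes, degradation factors and translocation components of the endoplasmic reticulum (ER). They were taken by name, with earlier results of these data known. All 37 were found among the 19221 genes of the single-cell count matrix and among the 23420 genes of the bulk table. The mice were female BALB/cJ. Single cells came from small intestinal lamina propria or Peyer's patches of 10-week-old mice, either controls or mice with ovalbumin-induced food allergy, and were captured as 3′ ends on a droplet platform. Lamina propria cells sorted as nonTB, a term the labels do not define, gave 3 control and 3 allergy libraries, and an IgDLow sort gave 1 library per condition. Peyer's patches gave 10 control libraries and 10 allergy libraries, of which 9 hold cells in the matrix; the remaining one was not analysed here. Library titles open with a date, 7 dates in all, numbered here in order (dates 1 to 5 for Peyer's patches, 6 and 7 for the lamina propria); the labels do not say what the date marks. On dates 1 and 2 the Peyer's patch titles end in D, I or J, and the library not analysed is the allergy library D of date 1, so on that date the allergy sums join 2 libraries and the control sums 3. The bulk libraries were made from KLRG1+ group 2 innate lymphoid cells (ILC2s) of wild-type 8-week-old mice, 250 sorted cells per culture, held for 3 hours. Every bulk culture, the base group included, contained 100 ng/ml each of IL-7 and IL-2. The 4 groups were base medium (3 libraries), IL-25 at 100 ng/ml (3), the neuropeptide α-CGRP at 0.4 μg/ml (4), and both agents together (3). Nothing in the labels tells whether replicates came from separate animals or cultures; p-values therefore cover library-to-library spread, part or all of which may be technical.

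Proteins bound for secretion enter the ER through a translocon, are folded by chaperones, glycan-binding lectins and disulfide isomerases, and, when folding fails, are returned to the cytosol for degradation, a process called ERAD. The unfolded protein response matches this machinery to demand through the kinase and ribonuclease IRE1 (Ern1), which splices Xbp1 messenger RNA, the membrane-bound transcription factor ATF6, and the kinase PERK, which favours translation of Atf4 and, downstream of it, expression of Ddit3 (CHOP). Plasma cells, which secrete antibody, are the textbook case of a cell type with an expanded ER, and Xbp1 is required for their secretory programme.

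Promoters of ER chaperone genes are known for the ER stress response element, whose letters are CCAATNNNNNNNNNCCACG and which is bound by ATF6 together with NF-Y. Promoter windows running from 250 bases before to 50 bases after the annotated start, from RefSeq on GRCm38.p6, were matched by symbol for 31 of the 37 genes; Atf6, Hyou1, Manf, Derl1, Sec61a1 and Mzb1 had no entry. The element, searched on both strands, was present in 9 of the 31 windows (29.03%), against 37 of 27025 genes in the whole table (0.1369%). Because it is known from genes of this kind, these shares are a description and not a test. The shorter element TGACGTGG, known as the core of the site bound by XBP1, was present in 2 of the 31 (6.452%, Txndc5 and Txndc11), against 0.7142% of all genes. The cyclic AMP response element TGACGTCA was in 0 of the 31 and in 2.031% of all genes. Such a match describes the letters in the window and not a bound site. The 9 windows that hold the longer element follow, trimmed to it and its flanks, so that the promoter feature these genes share can be read directly. Capitals mark CCAAT and CCACG, or ATTGG and CGTGG where the element lies on the other strand, and each is written 5′ to 3′ on the gene's own strand.
Hspa5 (chr2:34772005-34772063, plus strand): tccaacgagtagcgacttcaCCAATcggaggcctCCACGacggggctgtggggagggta
Calr (chr8:84847055-84847113, minus strand): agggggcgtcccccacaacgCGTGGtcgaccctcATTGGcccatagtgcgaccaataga
Derl3 (chr10:75893222-75893280, plus strand): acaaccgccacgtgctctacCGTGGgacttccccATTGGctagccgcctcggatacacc
Canx (chr11:50325780-50325838, minus strand): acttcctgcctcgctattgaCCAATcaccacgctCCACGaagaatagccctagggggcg
Pdia6 (chr12:17266471-17266529, plus strand): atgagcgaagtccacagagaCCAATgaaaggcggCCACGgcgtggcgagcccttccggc
Dnajc3 (chr14:118937807-118937865, plus strand): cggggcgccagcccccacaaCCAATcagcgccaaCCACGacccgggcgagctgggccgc
Creld2 (chr15:88819500-88819558, plus strand): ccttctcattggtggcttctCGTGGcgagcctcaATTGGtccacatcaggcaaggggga
Syvn1 (chr19:6046512-6046570, plus strand): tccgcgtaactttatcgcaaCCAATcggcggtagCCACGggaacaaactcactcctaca
Hsp90b1 (chr10:86705513-86705676, minus strand): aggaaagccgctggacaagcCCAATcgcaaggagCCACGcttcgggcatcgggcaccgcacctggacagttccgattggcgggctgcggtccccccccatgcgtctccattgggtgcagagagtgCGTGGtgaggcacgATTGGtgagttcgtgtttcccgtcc

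The element started between -212 bases (Hsp90b1, which holds 2 copies) and -44 bases (Syvn1) from the annotated start. Hspa5, Canx, Pdia6, Dnajc3 and Syvn1 carry it on the gene's own strand, Calr, Derl3 and Creld2 carry it on the opposite strand, and Hsp90b1 has a copy on each.

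Cells were assigned to classes by fixed marker panels that contain none of the 37 genes. Of 58067 cells, 4352 were gated as plasma cells, 169 as plasmablasts (plasma cells with at least 3 division genes), 1590 as plasmacytoid dendritic cells (pDCs), 546 as mast cells and 1481 as ILC2s; 11848 that met several panels and 11309 that met none were left out. UMIs (unique molecular identifiers, each standing for 1 captured RNA molecule) were summed per class and library, and a level is given as UMIs per 1000000 UMIs of genes other than immunoglobulin. The unit of every test is such a sum, of at least 10 cells unless stated. Immunoglobulin made up 67.3% of the median lamina propria plasma cell's UMIs but also 0.614% in ILC2s, which do not make it, so free RNA from plasma cells was present in the other classes. Between libraries, shared cell barcodes numbered 64 at most (7.69% of the smaller library) with a median of 6 over 351 pairs. Bulk libraries held 6942764 to 21551901 expected counts, of which the ribosomal gene Rn45s took 57.5% to 78.7%.

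Plasma cells were compared first with the other cell classes of the lamina propria, within the 6 nonTB libraries. All 37 genes were higher in plasma cells than in the average of 12 other classes, beside 30.6% of the 5610 genes tested. The test was edgeR's quasi-likelihood test with Benjamini-Hochberg adjustment at 0.05, as in all calls below. An average of classes is a mean of log levels, here and below, so classes with levels near 0 lower it. The median difference of the 37 genes was 3.15 on the log2 scale, whereas over all tested genes it was -0.09. Summed over the 37 genes, the level in plasma cells was 52194 ± 3427 (SD, n = 6), or 5.22% of their non-immunoglobulin UMIs. That share was 4.27% in plasmablasts, 0.777% in pDCs and 0.742% in B cells. Of all UMIs, immunoglobulin included, the 37 genes made up 1.70% in plasma cells and 2.74% in plasmablasts. In pDCs and B cells they made up 0.769% and 0.719%. The order of plasma cells and plasmablasts thus depends on the total used. In 29 of the 37, every plasma cell library lay above every one of the 62 sums of the other classes, which held for 3.30% of 8027 genes with enough UMIs to be compared. Outside plasma cells, Derl3 and Fkbp11 did not reach 10 UMIs in 3 sums, so the size of their difference is less certain. No gate marker is a member, but plasma cells were recognised by their immunoglobulin, so the genes that accompany antibody secretion are compared between classes that the gate itself set apart.

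**Figure D1:**
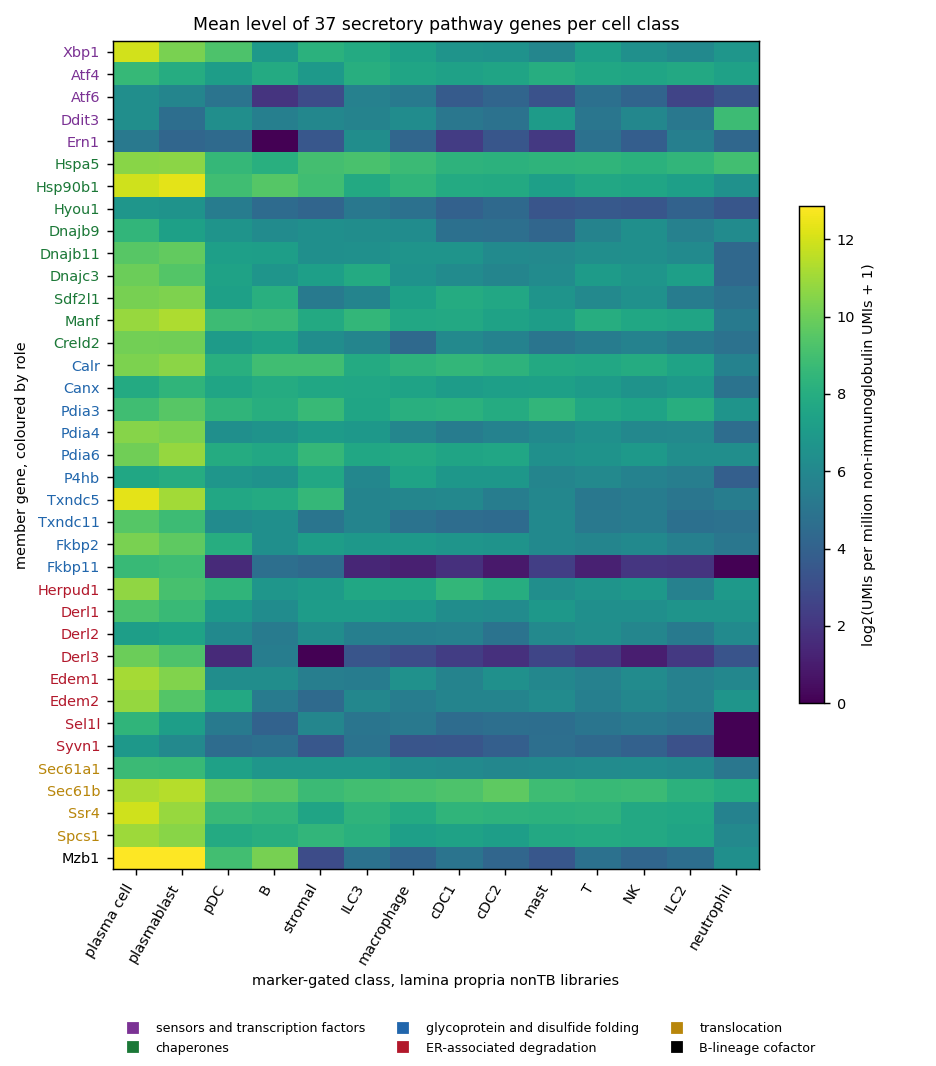
Mean level of each of the 37 genes (vertical axis, coloured by role) in each marker-gated class of the nonTB lamina propria libraries (horizontal axis), as log2 of UMIs per 1000000 plus 1. The plasma cell and plasmablast columns are the brightest for most genes, while Ddit3 is brightest in neutrophils.

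Among the sensors and transcription factors, Xbp1 showed the largest difference. Its level in plasma cells was 2611 in the lowest library, 4067 at the median and 4711 in the highest. pDCs, the next class, were at 605 ± 16.9 (SD, n = 6), and no library of any other class reached the plasma cell range. The difference from the average of the other classes was 4.84 ± 0.08 (log2 ± SE, adjusted p = 2.54e-69). Atf4, the effector of the PERK branch, ranged in plasma cells from 306.3 through a median of 342.6 to 616.4, and overlapped with ILC3s, the next class, at 269 ± 57.0 (SD, n = 6). Its difference was 1.01 ± 0.09 (adjusted p = 4.9e-18). Ddit3, the pro-apoptotic factor CHOP, had 57.93, 81.8 and 104.4 as lowest, median and highest plasma cell level. Neutrophils, which passed the cell minimum only in the 3 allergy libraries, had a mean Ddit3 level of 443 ± 212 (SD, n = 3), above every plasma cell library and resting on 44 UMIs. The difference of plasma cells from the average class was accordingly small, 0.35 ± 0.13 (adjusted p = 0.0232). Ern1, the IRE1 sensor that splices Xbp1 messenger RNA, was at 36.0 ± 5.13 in plasma cells, below ILC3s at 77.3 and ILC2s at 46.4. It stood 1.51 ± 0.20 above the average of the other classes, a mean of log levels that includes B cells, whose mean level was 0. Sensors differed less than the other roles, with a median of 1.51 and a range of 0.35 to 4.84.

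Chaperones were uniformly higher, with a median of 3.11 over 9 genes. Hspa5, the ER's main Hsp70 chaperone (BiP), was at 1047, 1590 and 1710 in the lowest, median and highest plasma cell library, and at a mean of 575 in ILC3s, the next class. Its difference of 1.97 ± 0.09 (adjusted p = 2.77e-35) was the smallest of the chaperones. Hsp90b1, the ER member of the Hsp90 family (GRP94), ranged from 2566 through 3996 to 4834 in plasma cells and differed by 3.91 ± 0.08. Hspa5 and Hsp90b1 are among the windows shown above, but holders of the element were not set apart in this comparison: the median difference was 3.15 for the 9 with the element and 3.47 for the 22 with a window without it.

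Folding enzymes had a median difference of 3.20. Txndc5, a thioredoxin-domain disulfide isomerase, had levels of 4776, 5058 and 5746 (lowest, median, highest), a difference of 6.17 ± 0.08 and the lowest p of all 37 genes (adjusted p = 2.38e-81). Pdia4, another disulfide isomerase, differed by 4.33 ± 0.08, and Txndc11, a further thioredoxin-domain protein, by 4.21 ± 0.10. Fkbp11, a prolyl isomerase known from secretory tissues, ran from 252.5 through 418.4 to 527.2 and differed by 6.87 ± 0.17, with the reservation on its low counts elsewhere. Fkbp2, its relative, differed by 3.74 ± 0.08. Canx, the membrane-bound lectin calnexin, had the smallest difference of the group, 0.71 ± 0.10. Its mean was 232.7 in plasma cells and 235.5 ± 152 in B cells (SD, n = 4). P4hb, of the same group, likewise did not stand above the next class, at 199.4 in plasma cells and 205.7 in stromal cells.

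ERAD genes had the highest median of the larger roles, 3.56. Herpud1, a scaffold of the retrotranslocation complex, was at 917.7, 1348 and 2621 in the lowest, median and highest library, with conventional type 1 dendritic cells next at 362 ± 98.8 (SD, n = 6). Its difference was 3.34 ± 0.11 (adjusted p = 3.8e-46). Edem1 and Edem2 differed by 5.03 ± 0.09 and 4.85 ± 0.08. Derl3, a derlin, a family of membrane proteins of the retrotranslocation channel, reached 891.8 to 1087 in plasma cells and differed by 7.64 ± 0.13. Edem1 also showed the largest ratio of plasma cells to the next class, 25.0, against a median ratio of 4.30 over the 37 genes.

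Translocation genes differed by a median of 2.88. Ssr4, a subunit of the translocon-associated complex, ranged from 3590 through 3898 to 4485 and differed by 3.96 ± 0.07. Spcs1, a signal peptidase subunit, differed by 3.36 ± 0.07. Mzb1, a B-lineage cofactor of ER chaperones that assists antibody assembly, was at 5618, 7216 and 8519 in the lowest, median and highest plasma cell library and differed by 7.35 ± 0.12.

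**Figure D2:**
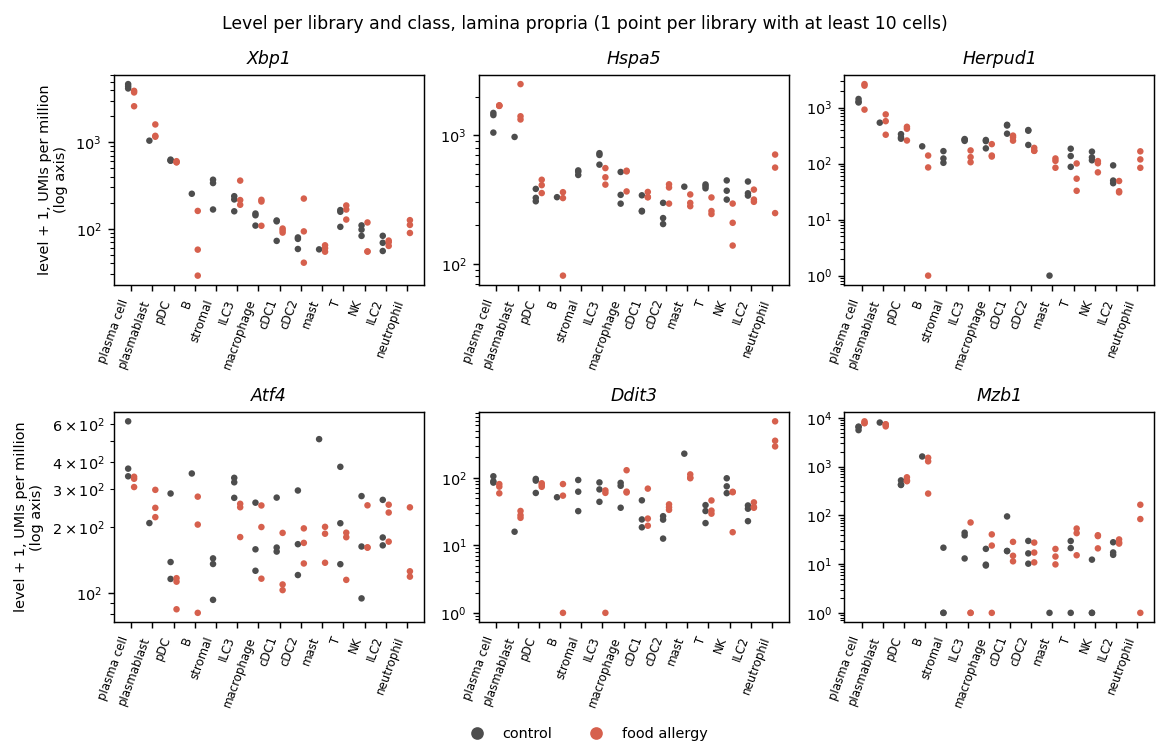
Level plus 1 (UMIs per 1000000 non-immunoglobulin UMIs, log axis) of 6 genes in each class of the nonTB lamina propria, 1 point per library with at least 10 cells, control in grey and food allergy in red. Xbp1 in plasma cells lies between 2611 and 4711, above all other classes, whereas Atf4 overlaps between classes and Ddit3 is highest in neutrophils.

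pDCs, interferon-producing cells that share a secretory morphology with plasma cells, also carried many of these genes at higher levels. Compared with the average of the other classes, plasma cells and plasmablasts left out, 29 of the 37 genes were higher, beside 30.3% of all tested genes, and 1 was lower, beside 9.41%. The median was 0.88, and 0.14 over all genes. Xbp1 was at 585, 607 and 629 in the lowest, median and highest pDC library and differed by 2.41 ± 0.11 (adjusted p = 4.06e-35). Mzb1, at 419.6 to 604.7, differed by 3.90 ± 0.18, Edem2 by 2.01 and Txndc5 by 1.79. Xbp1 and Mzb1 were thus the leading members in pDCs, in narrow ranges over the 6 libraries. Herpud1, at 257.3 to 452.6, was higher by 1.21 ± 0.15 and Ddit3 by 0.43 ± 0.18 (adjusted p = 0.0479). Hspa5, at 305.2 to 449.3, did not pass the test (-0.00 ± 0.12), and Atf4, at a median of 115.3, was lower, with a difference of -0.37 ± 0.12 (adjusted p = 0.0105). Derl3 reached no more than 4.99 and Fkbp11 no more than 6.91 per 1000000 in any pDC library. The plasma cell profile and the pDC profile were not tested against each other.

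Mast cells, which store and release granule proteins, had few of these genes at higher levels. Here 3 of the 37 were higher than the average of the other classes, beside 24.8% of all tested genes, and 7 were lower, beside 6.43%; with another scaling (RLE) the split was 2 higher and 9 lower, as the median of all genes moved from 0.18 to -0.03. Mast cell sums came from 1 control library (10 cells) and 3 allergy libraries. The control sum held 17646 UMIs, of which mast cell markers made up 16264 per 1000000, against 67159 to 83441 in the allergy sums, and its Ddit3 and Ssr4 levels rest on 4 and 3 UMIs. Without it 3 members were higher and 6 lower, Mzb1 being the call lost. Xbp1 was at 56.7 in the control sum and at 63.3, 53.2 and 58.4 in the allergy sums, the lowest average of any class, with a difference of -1.01 ± 0.25 (adjusted p = 0.000591). Ddit3 was at 227 in the control sum and at 99.9, 97.5 and 111 in the others, and was higher than the average class by 1.12 ± 0.24 (adjusted p = 6.17e-05). Ssr4 was at 170 in the control sum and at 279.8, 350.3 and 420.2 in the others, a difference of 0.62 ± 0.14. The third higher gene was Pdia3, a glycoprotein disulfide isomerase, at 0.56 ± 0.15, a call that held in 8 of 13 alternatives. Lower besides Xbp1 were Dnajb9 (-1.10), Txndc5 (-1.07), Mzb1 (-1.50), Pdia6 (-0.68), Hsp90b1 (-0.59) and the co-chaperone Dnajc3. Of 84 further genes of the pathway tested, 27 (32.1%) were higher in mast cells, beside 24.8% of all genes; the largest were Creb3l1, a membrane-bound transcription factor of the secretory pathway (6.65 ± 0.33), the thiol oxidase Ero1l (3.58 ± 0.21) and the signal peptidase subunit Spcs3 (2.80 ± 0.17).

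Plasmablasts, the dividing plasma cells, were then set against non-dividing plasma cells of the same libraries, using 4 plasmablast sums (1 control, 3 allergy; 99 cells). Among the 37, 5 were higher in plasmablasts, beside 13.9% of all genes, and 16 were lower, beside 12.6%; their median was -0.36, and -0.15 over all genes. ERAD genes accounted for 7 of the lower calls and none of the higher ones, among 8 tested; the remaining one, Derl2, had a difference of 0.36 ± 0.17 that did not pass (adjusted p = 0.122). Chaperones counted 2 higher and 2 lower, and folding genes 3 higher and 3 lower. With RLE scaling, under which the median of all genes was -0.31, 3 were higher and 19 lower.

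Xbp1 gave the largest decrease. It was at 1043 in the control plasmablast sum and at 1158, 1608 and 1187 in the allergy sums, all below the lowest plasma cell library (2611), a difference of -1.56 ± 0.15 (adjusted p = 1.36e-14). Herpud1 was at 536.5 in the control sum and at 754, 571 and 326 in the allergy sums, all below every plasma cell library, and differed by -1.49 ± 0.20. Ddit3 fell by 1.45 ± 0.34 on the log2 scale, with plasmablast levels of 14.9 to 31.3 below the lowest plasma cell level of 57.93. These Ddit3 levels rest on few UMIs. The control plasmablast sum held 67105 non-immunoglobulin UMIs and the allergy sums 148512, 162989 and 447397. Edem2 (-1.30 ± 0.13), Txndc5 (-1.15 ± 0.13), Ssr4 (-1.04 ± 0.13), Dnajb9, a co-chaperone induced by the IRE1 branch (-1.04 ± 0.20), and Sel1l, the adaptor of the Hrd1 ubiquitin ligase (-1.01 ± 0.18), followed. Pdia6 went the other way: its plasmablast levels were 1848 in the control sum and 1953, 1877 and 1413 in the allergy sums, all above the plasma cell maximum of 1250, a difference of 0.71 ± 0.13. Pdia3, at 685.5 in the control sum and 814.8, 705.6 and 742.1 in the others, rose by 0.65 ± 0.14, Canx by 0.59 ± 0.15, Manf by 0.44 ± 0.13 and Hsp90b1 by 0.41 ± 0.13. Hspa5 (0.09 ± 0.16, adjusted p = 0.73) and Atf4 (-0.39 ± 0.16, adjusted p = 0.0669) did not pass. Immunoglobulin made up 30.5% to 41.2% of plasmablast UMIs and 60.7% to 72.3% of plasma cell UMIs. All differences in this comparison are relative to non-immunoglobulin UMIs. Of all UMIs, immunoglobulin included, the summed members were higher in plasmablasts. They made up 2.74% ± 0.07% there (SD, n = 4) and 1.70% ± 0.22% in plasma cells (SD, n = 6). Single genes were not tested on that total.

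In Peyer's patches, sums were made per date and condition. Plasma cells there were few, 121 cells in 6 sums. Of the 35 members tested, 34 were higher in them than in B cells, beside 21.8% of the 2992 genes tested, with a median of 3.17. Xbp1 was at 1459, 1887 and 2981 (lowest, median, highest) in plasma cells and at 42.6, 59.0 and 105 in B cells, with no overlap, and differed by 5.14 ± 0.19 (adjusted p = 6.03e-19). Fkbp11 (6.21), Derl3 (5.61), Edem1 (5.08) and Pdia4 (4.45) showed differences of similar size, Hspa5 differed by 2.60, Herpud1 by 2.20 and Atf4 by 0.72. Ddit3 was the member that did not pass (-0.73 ± 0.44, adjusted p = 0.178). Macrophage markers summed to 8561, 22576 and 18757 per 1000000 in 3 of the 6 plasma cell sums and to 426, 35 and 87 in the others, against 431 to 2294 in B cells; their part in these differences was not tested.

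Germinal centre B cells, the dividing, antibody-mutating B cells, were lower than other B cells for most of the chaperones. Of the 35 members tested, 17 were lower, beside 34.4% of all genes, and 8 were higher, beside 31.5%, so the count of higher members lies below the background. Chaperones counted 7 lower and 0 higher among 9, whereas ERAD genes counted 4 higher and 1 lower among 8. Mzb1 was at 310, 455 and 659 (lowest, median, highest) in B cells and at 1018, 1200 and 1297 in germinal centre B cells, with no overlap, and rose by 1.09 ± 0.13. Herpud1, at 110, 137 and 197 in B cells and 208, 320 and 388 in germinal centre B cells, likewise did not overlap and rose by 0.67 ± 0.12. Edem1 rose by 0.96 and Txndc11 by 0.81. Pdia4, at 15.04, 58.5 and 72.3 in B cells and 0, 10.4 and 17.2 in germinal centre B cells, fell by 2.48 ± 0.16 on the log2 scale; its ranges overlapped only through the lowest B cell sum. Hsp90b1 fell by 1.37 ± 0.17, Ddit3 by 1.38 ± 0.19 and Hspa5 by 0.76 ± 0.15, the last from 128, 212 and 332 in B cells to 118, 140 and 190, with overlapping ranges. Fkbp11 had no UMI in 7 of 8 germinal centre sums and at most 14.6 per 1000000 in B cells, so its fitted difference rests on few counts. Xbp1, the regulator of the plasma cell programme, did not pass (0.02 ± 0.17, adjusted p = 0.931).

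**Figure D3:**
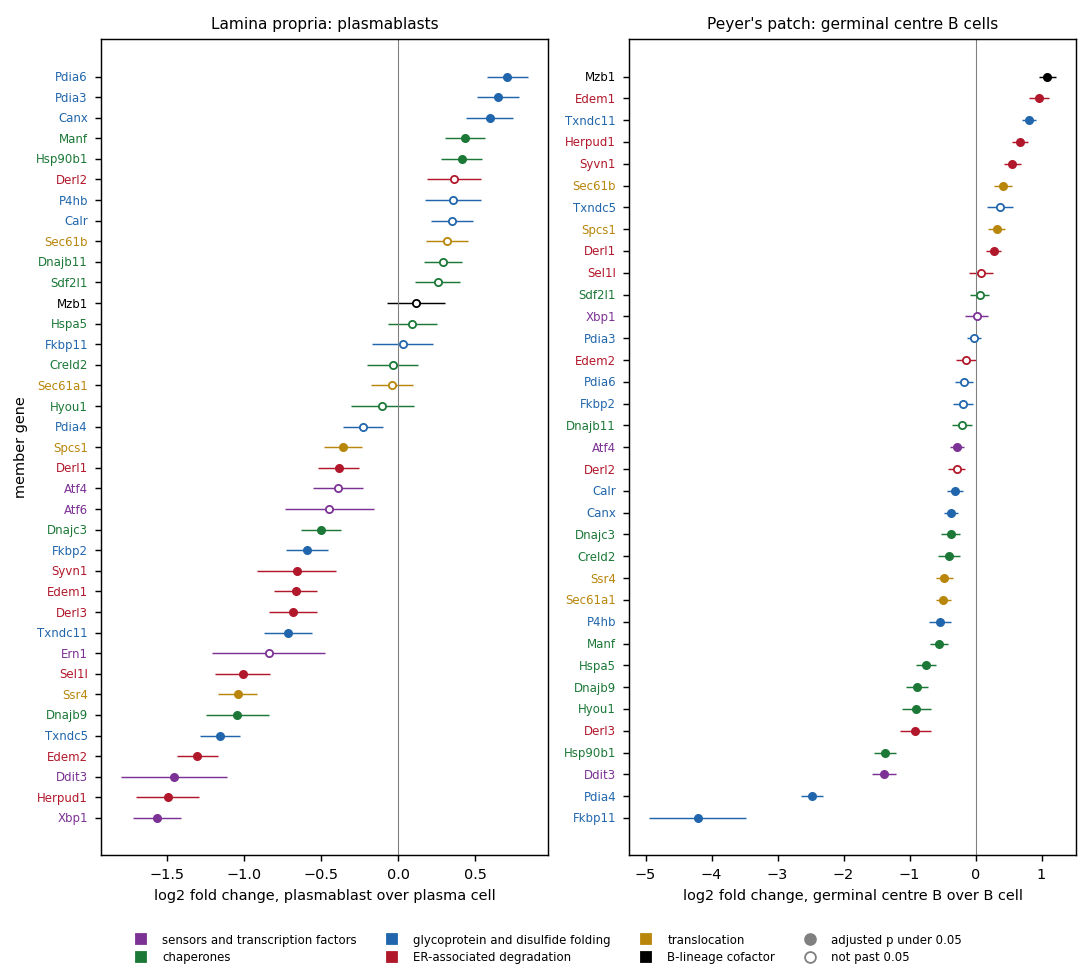
Log2 fold change of each member (vertical axis, coloured by role) with its SE, for plasmablasts over plasma cells of the lamina propria (left) and germinal centre B cells over B cells of Peyer's patches (right); filled points have an adjusted p under 0.05. On the left 7 of 8 ERAD genes lie below 0, and on the right 7 chaperones pass on the negative side.

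The effect of food allergy was read first in lamina propria plasma cells, with the date as a term. Here 5 of the 37 (13.5%) were higher in allergy, beside 1.62% of 7734 genes, and 0 were lower. The median over the 37 was 0.17, with 27 above 0, and was -0.01 over all genes; 21 members had an unadjusted p under 0.05 (56.8%), beside 16.8% of all genes. Fkbp11 was at 355, 346 and 252 in the control libraries and at 481, 484 and 527 in the allergy libraries, and rose by 0.75 ± 0.13 (adjusted p = 0.00633). Pdia6 was at 991, 1053 and 637 against 1250, 1186 and 1224 and rose by 0.57 ± 0.13 (adjusted p = 0.0365). Hsp90b1 was at 3706, 3637 and 2566 against 4311, 4286 and 4834 and rose by 0.54 ± 0.13 (adjusted p = 0.046). In these 3 genes the conditions did not overlap, and the third control library was the lowest. The same was true of the remaining pair, the chaperone Hspa5 and the cofactor Mzb1. These 5 genes were picked by their p-values, and the share of all genes without overlap is not given here. Hspa5 was at 1434, 1490 and 1047 against 1710, 1690 and 1695 and rose by 0.47 ± 0.11 (adjusted p = 0.0424). Mzb1 was at 6491, 6636 and 5618 against 7796, 7896 and 8519 and rose by 0.46 ± 0.10 (adjusted p = 0.0331).

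The calls depended on the fit and on single libraries. Fkbp11 held in 13 of 14 alternatives and each of the other 4 in 9. No member passed in a fit without the date term, and 1, Fkbp11, passed without control library 1, without control library 2 and without allergy library 1. By contrast, 7 higher and 1 lower passed without control library 3, and the same counts without allergy library 3. In the IgDLow sort, which has 1 library per condition and so no test, the 5 genes stood higher in allergy. Of all 37 genes, 22 stood higher there. Hspa5, for example, was at 1098 in control and 1698 in allergy, and Hsp90b1 at 2831 and 4281. Both IgDLow libraries carry date 7, the date of nonTB library 3 of each condition. Their plasma cells differed in depth, with 1616890 non-immunoglobulin UMIs from 343 cells in control and 1607947 from 909 in allergy. The part of this depth was not tested. Over both dates of the nonTB sort, 18 members were higher in allergy on each date, 10 were lower on each, and 9 had opposite signs. The shares of all genes with these directions, in either sort, are not given here. The counts therefore describe the members and do not set them apart from other genes.

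The sensors had fitted changes below 0 and did not pass. Xbp1 was at 4711, 4448 and 4196 in the controls and at 3938, 3774 and 2611 in allergy, with no overlap, and its change was -0.30 ± 0.09 (adjusted p = 0.0928). Atf4 (-0.31, adjusted p = 0.172) and Ddit3 (-0.32, adjusted p = 0.233) likewise did not pass. Over the 5 sensors the fitted changes lay between -0.32 and -0.11. The mitochondrial share of the UMIs of plasma cells was 5.52%, 5.38% and 5.04% in the controls and 4.83%, 5.02% and 4.001% in allergy, without overlap. Mast cell markers summed to 13 to 18 per 1000000 in the control plasma cells and to 137 to 259 in the allergy plasma cells. The part of either in these differences was not tested.

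Herpud1 was at 1273, 1423 and 1232 in the control plasma cells and at 2460, 2621 and 918 in allergy, so date 7 (library 3) went against date 6, and its change of 0.56 ± 0.17 did not pass (adjusted p = 0.0928). In 7 of the 8 other classes with sums on both dates its mean level was lower in allergy on each date, among them ILC3s (273, 253 and 265 against 171, 105 and 129) and conventional type 1 dendritic cells (477, 491 and 341 against 315, 255 and 293); pDCs were the exception (277, 334 and 291 against 453, 418 and 257), higher on date 6 and lower on date 7. Tested within a class, neither ILC3s (adjusted p = 0.221), ILC2s (0.263) nor pDCs (0.276) passed for this gene. The difference between the allergy effect in plasma cells and the mean effect in those 8 classes was tested directly. This comparison was chosen after the values were seen. For each gene the fit estimated 1 spread over the sums of all these classes, with no term for class and date together. Its p-values therefore do not measure how far the plasma cell effect varied between dates. Of the 36 members tested, 2 differed, beside 0.379% of 4485 genes: Herpud1 by 1.21 ± 0.18 (adjusted p = 4.89e-05) and Hspa5 by 0.48 ± 0.11 (adjusted p = 0.0146). Leaving out each library in turn kept Herpud1 between 1.00 and 1.53, still past the threshold. Hspa5, with a range of 0.36 to 0.62, no longer passed on leaving out any library other than allergy library 3.

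**Figure D4:**
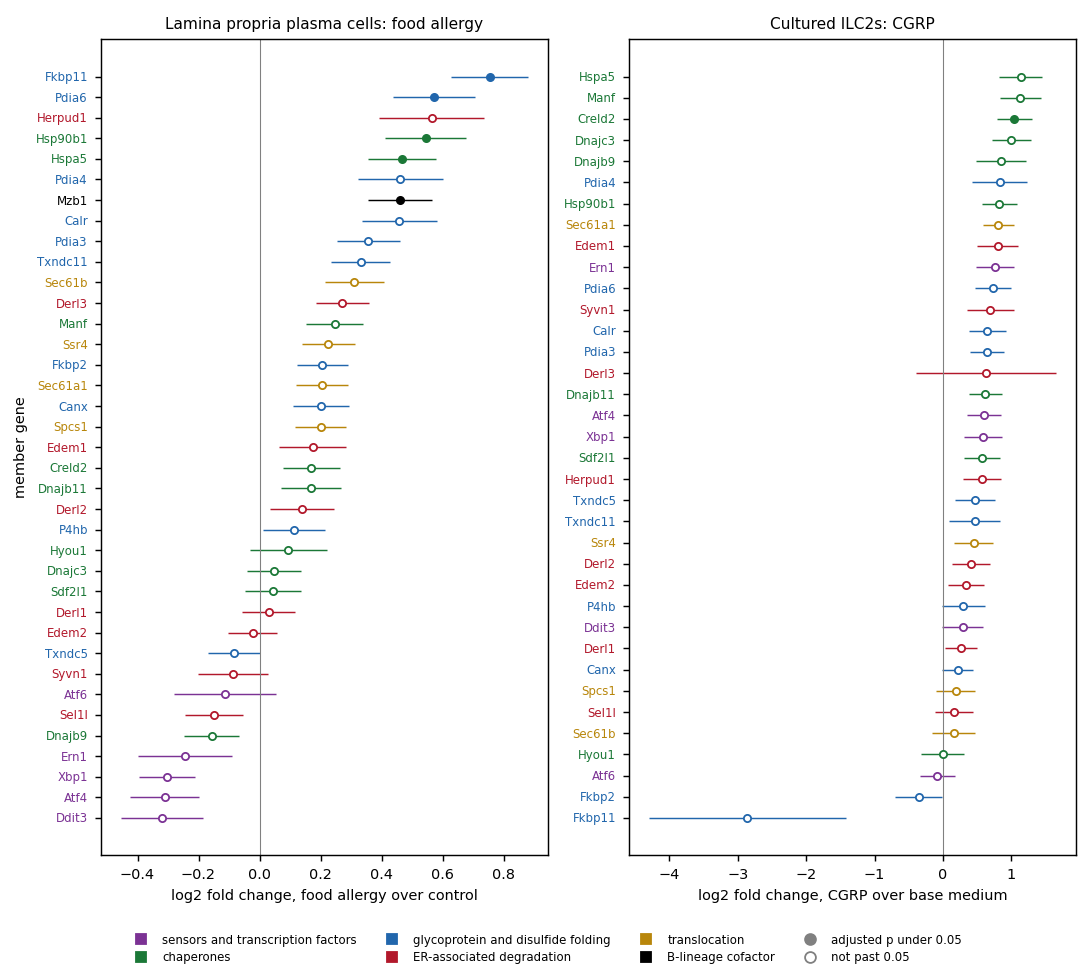
Log2 fold change of each member (vertical axis, coloured by role) with its SE, for food allergy over control in lamina propria plasma cells (left) and for CGRP over base medium in cultured ILC2s (right); filled points have an adjusted p under 0.05. On the left 5 genes pass and the sensors lie below 0, and on the right 32 of 36 lie above 0 while Creld2 alone passes.

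In plasmablasts, pDCs, mast cells, ILC2s and ILC3s, the other lamina propria classes tested, no member passed edgeR's quasi-likelihood test between allergy and control. The remaining classes were not tested for allergy one by one. In plasmablasts, at a minimum of 5 cells per sum, 0 of 33 passed beside 0.118% of all genes, with 4 at an unadjusted p under 0.05 (12.1%, and 9.25% of all genes). In pDCs it was 0 of 33 beside 1.41%, with 9 at an unadjusted p under 0.05 (27.3%, and 11.8% of all genes). In mast cells, for which a more lenient gate was needed to reach 48 control cells beside 742 allergy cells, it was 0 of 29 beside 3.06%, with 4 (13.8%, and 15.5% of all genes). ILC2s had 0 of 23 beside 18.3% of genes called, with 2 (8.70%, and 29.2% of all genes). ILC3s had 0 of 16 beside 0.770%, with 2 (12.5%, and 10.6% of all genes). ILC2s thus had the largest share of called genes among these classes and no called member among the 23 measured. Under DESeq2 the count was also 0 in plasmablasts, pDCs, mast cells, ILC2s and ILC3s.

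In the Peyer's patch classes tested for allergy, a single member passed. Ddit3 in germinal centre B cells was at 31.6, 18.6, 84.5, 37.0 and 29.1 in the control sums and at 9.52, 13.1 and 10.5 in the allergy sums, without overlap, and fell by 1.77 ± 0.41 on the log2 scale (adjusted p = 0.0311); this was 1 of 34 members lower, beside 0.0606% of genes. It held in 4 of the 11 alternatives in which it was tested. It was lost under DESeq2, without the date term, with a more lenient gate, and without the control sum of date 5 or of date 3, the latter leaving a change of -0.99. Without the control sum of date 1 or 2, or the allergy sum of date 2 or 3, too few counts were left to test it. The other Peyer's patch classes tested, plasma cells, B cells and T cells, had none. In plasma cells it was 0 of 30, beside 0% of 981 genes, of which 28 had an unadjusted p under 0.05. The plasma cell fit had 1 residual degree of freedom. In B cells it was 0 of 33 (beside 0.139%) and in T cells 0 of 35 (beside 0.0107%). At an unadjusted p under 0.05 these classes had 2 (6.67%, and 2.85% of all genes), 2 (6.06%, and 4.58%) and 3 members (8.57%, and 4.88%), and under DESeq2 0 in each. The allergy sum of date 1 entered the fits of B cells and T cells, and without it the count in both was still 0.

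In cultured ILC2s with CGRP, Creld2 alone of the members passed the test, and it was higher. Summed over the members, the level was 4053, 4945 and 5559 counts per 1000000 in the base libraries and 8421, 7065, 9069 and 8494 with CGRP, without overlap, and it was 8518, 7446 and 7915 with CGRP and IL-25 against 4365, 6761 and 4772 with IL-25 alone. Against base medium, 1 of 36 members was higher, beside 1.08% of 12355 genes, 0 were lower, and 32 had a change above 0. The median was 0.58, and 0.00 over all genes; 16 members had an unadjusted p under 0.05 (44.4%), beside 12.6% of all genes. In 9 of the 36, every CGRP library lay above every base library, beside 7.40% of all genes, and in 1, the prolyl isomerase Fkbp11, every one lay below, beside 5.16%. Fkbp11 was at 0.867, 0.661 and 1.13 in base medium and at 0.186, 0, 0 and 0.284 with CGRP, levels of few counts, and its fitted change of -2.86 ± 1.44, the largest in size of the 36, did not pass (adjusted p = 0.423). In sorted cells of this kind, fewer cells of a type and less RNA per cell cannot be told apart.

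Creld2, an ER protein with disulfide isomerase activity that is induced by ER stress, was at 127, 126 and 164 in base medium and at 238, 336, 285 and 300 with CGRP. It rose by 1.04 ± 0.26 (adjusted p = 0.0364), and the call held in 10 of 18 alternatives, with changes from 0.95 to 1.17; it was lost on leaving out any 1 of the base libraries, CGRP library 2, 3 or 4, or library 3 of the group with both agents. Manf, a secreted ER stress-induced factor, was at 159, 116 and 150 against 265, 427, 231 and 336, with no overlap, and its change of 1.13 ± 0.29 did not pass (adjusted p = 0.0521). Hspa5 was at 453, 859 and 838 against 1778, 847, 2289 and 1469; library 2 lay within the base range, and the change of 1.14 ± 0.31 did not pass (adjusted p = 0.0713). Hsp90b1 was at 658, 666 and 711 against 959, 1350, 1157 and 1394, again with no overlap (0.82 ± 0.26, adjusted p = 0.12). CGRP library 2 was the lowest of the 4 for 20 of the 36 members and the highest for 9, Creld2 and Manf among the latter. The shares of all genes in either position are not given here. Macrophage markers were at 40.2 and 38.6 per 1000000 in CGRP libraries 2 and 4 and at 1.19 to 5.10 in the others, and ILC2 markers were at 1244 to 2412 without CGRP and 2986 to 4763 with it; their part in these differences was not tested.

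Of the regulators, Atf4 was at 102, 139 and 138 in base medium and at 186, 200, 176 and 210 with CGRP, without overlap, with a change of 0.60 ± 0.24 (adjusted p = 0.28). Xbp1 was at 128, 188 and 179 against 317, 133, 314 and 245, overlapping through library 2 (0.59 ± 0.28, adjusted p = 0.38). Herpud1 (0.57 ± 0.28, adjusted p = 0.406) and Ddit3 (0.29 ± 0.30, adjusted p = 0.769) did not pass either.

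**Figure D5:**
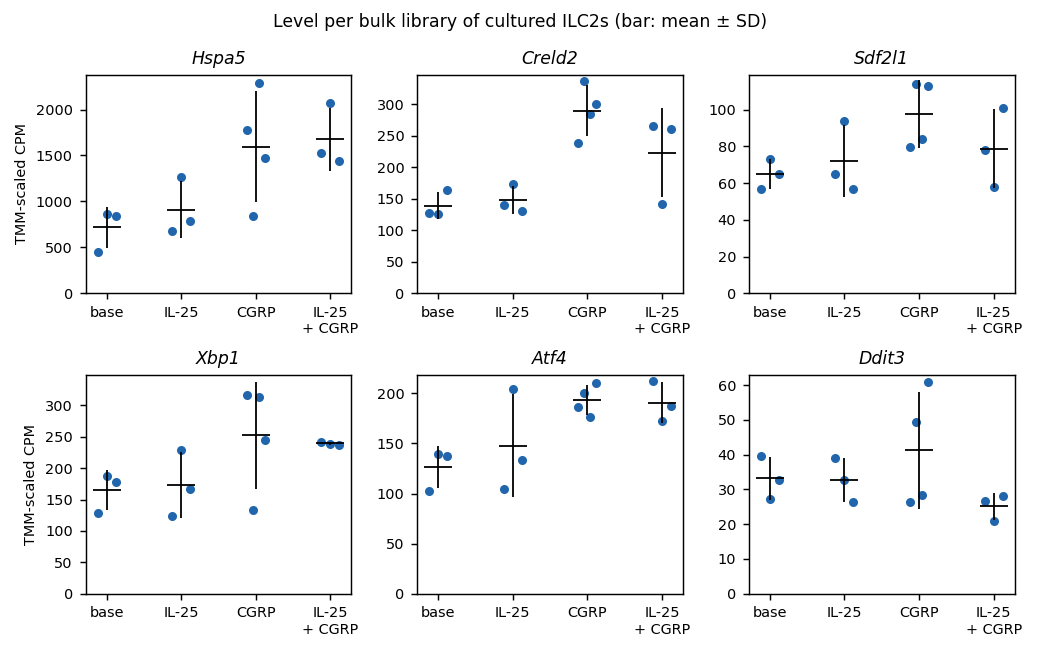
Level of 6 members in each bulk library of cultured ILC2s (points, counts per 1000000 after TMM scaling) by culture condition, with the mean and SD as bars. The CGRP libraries of Creld2 and Atf4 lie above all base libraries, while Hspa5 and Xbp1 have 1 CGRP library within or near the base range.

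On top of IL-25, CGRP moved 0 of 36 members past the threshold, beside 0.631% of all genes, with 9 at an unadjusted p under 0.05 (25.0%, and 11.3% of all genes), 28 above 0, a median of 0.41, and 7 of 36 with no overlap, beside 7.75%. DESeq2 called 2. IL-25 alone against base medium gave 0, beside 0.0728%, with 0 at an unadjusted p under 0.05 (3.85% of all genes) and a median of 0.13. IL-25 in the presence of CGRP against CGRP gave 0, beside 0.113%, with 1 at an unadjusted p under 0.05 (2.78%, and 6.56% of all genes), and a median of -0.03. The 3 comparisons that share the base or the CGRP libraries are given side by side only. The interaction of the agents gave 0 members, beside 0% of genes, with 0 members and 532 genes at an unadjusted p under 0.05 in edgeR, and 0 under DESeq2. Holders of the promoter element had a median change with CGRP of 0.73 over 9 genes, and 0.46 was the median over the 22 others with a window.

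A list of 96 further genes of the pathway was counted in the same fits. In lamina propria plasma cells against the other classes, 72 of 84 tested were higher (85.7%, beside 30.6% of all genes) and 3 lower (3.57%, beside 21.96%), all 22 translocon and glycosylation genes and all 20 ER-to-Golgi genes among the higher; the largest were Kdelr3, a retrieval receptor (5.51), Tram2 (5.16) and Prdx4, an ER peroxiredoxin (4.85). In pDCs 43 were higher (51.2%, beside 30.3%) and 7 lower (8.33%, beside 9.41%), among the latter Ppp1r15a, which reverses the PERK signal, at -2.15. In mast cells, besides the 27 higher, 3 were lower (3.57%, beside 6.43%); 5 of 22 translocon and 6 of 20 ER-to-Golgi genes were among the higher. In plasmablasts 11 were higher (13.1%, beside 13.9%) and 25 lower (29.8%, beside 12.6%), led by Cebpb (-2.74). In germinal centre B cells 11 of 64 were higher (17.2%, beside 31.5%) and 26 lower (40.6%, beside 34.4%). In Peyer's patch plasma cells 55 of 64 were higher (85.9%, beside 21.8%) and 3 lower (4.69%, beside 27.7%).

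With allergy, 6 of 91 were higher (6.59%, beside 1.62% of all genes) and 2 lower (2.20%, beside 0.866%) in plasma cells. Ddit4, a stress-induced inhibitor of mTORC1, rose by 2.24 ± 0.23 (adjusted p = 0.000102), Copb2, a coat protein of retrograde transport, by 0.73 ± 0.15, and Chac1, a target of the PERK branch, fell by 1.55 ± 0.35 on the log2 scale. The mast cell test used the more lenient gate, with 48 control and 742 allergy cells. In mast cells 4 of 68 were higher (5.88%, beside 2.16%), Ero1l among them (1.91 ± 0.32), and 1 lower (1.47%, beside 0.905%). Ero1l was also higher in mast cells than in the average class (3.58). Under the first gate, mast cell marker levels were 51262, 18628 and 16264 in control sums of 7, 6 and 10 cells. In the allergy sums they were 78130, 83441 and 67159. The part of this difference in the Ero1l change was not tested. In ILC2s 3 of 55 were higher (5.45%, beside 11.04%) and 3 lower (5.45%, beside 7.28%), so both shares lie below those of all genes; Ero1l rose there by 1.38 ± 0.22 and Ppp1r15a fell by 1.78 ± 0.14. With CGRP, 3 of 93 rose (3.23%, beside 1.08%): Chac1 by 2.10 ± 0.44 (adjusted p = 0.0114), Creb3l2, a membrane-bound transcription factor of the secretory pathway, by 1.52 ± 0.30 (adjusted p = 0.00714), and Selk, a selenoprotein of the ERAD machinery, by 1.12 ± 0.29 (adjusted p = 0.0475). Chac1 thus moved in opposite directions in plasma cells with allergy and in ILC2s with CGRP, a difference between experiments that was not tested.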

How the data were processed

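Single-cell RNA-seq (10x 3′, with UMIs) and bulk Smart-seq2 RNA-seq (without UMIs) were used. Per the submitters' processing notes, bcl2fastq, Cell Ranger, Bowtie2 and RSEM were used with build mm10; the sources used here give neither versions nor which tool made which file. The authors deposited UMI counts per gene and cell, and RSEM expected counts per gene and bulk library. Every sample's column or cell barcode was matched to its labels, and 0 per-sample columns were left unused. Expected counts were rounded before testing.

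Cells were gated by marker panels (at least 3 markers of 1 panel; for plasma cells, at least 10% immunoglobulin and a Jchain UMI; 66 lamina propria cells lay between 5% and 10%). No doublet caller was run; cells meeting several panels were left out. Counts, without immunoglobulin genes, were summed per class and library (Peyer's patches: per class, date and condition) and tested over all genes with edgeR 4.0.16 (filterByExpr, TMM, glmQLFit, glmQLFTest, R 4.3.3, Benjamini-Hochberg at 0.05); DESeq2 1.42.0 was an alternative. Lamina propria classes were compared with the library as a term and Peyer's patch classes with the date and condition as a term; allergy was tested with the date of the library title as a term; the 13 bulk libraries shared 1 fit. Adjusted p-values in the text come from edgeR. The code was tested on simulated data.

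The members and lists were chosen with earlier results of these data known. Xbp1, Hspa5, Atf4, Ddit3 and Herpud1 were to be named in every main comparison, with up to 12 members of lowest p past 0.05, and the 3 largest changes among the further pathway genes. A more lenient gate, in which a cell meeting several panels takes the one leading by at least 2 markers, the minimum of 5 cells per plasmablast sum and the test of the difference in allergy effect were chosen after seeing the data. Manf, Hsp90b1 and Ern1, and members outside the 12, were named after their values were seen. Intervals were not computed for single libraries; without UMIs, bulk counts are not independent molecules.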

Additional observations from a re-analysis of the deposited data

Results flagged for a closer look

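A library or sum stood apart from the others of its group in 8 of 66 groups of 4 or 5 values examined. The groups were 36 genes in the bulk CGRP libraries, and Xbp1, Hspa5, Atf4, Ddit3 and Herpud1 in Peyer's patches. Chance alone gives such a value in about 1 in 20 groups. In bulk CGRP libraries, Syvn1, the Hrd1 ubiquitin ligase of ERAD, was at 69.7 per 1000000 in library 2, against 23.9 to 30.5 in the others, and Sec61b, a translocon subunit, was at 155 in 1 library, against 76.4 to 88.7. In Peyer's patch B cells, Xbp1 was at 42.6 in the allergy sum of date 1, against 58.5 to 60.4, and Ddit3 at 146 in 1 allergy sum, against 25.1 to 43.3. Atf4 was high in the sums of date 5: 325 in control B cells, against 149 to 165 in the other control sums, 271 in allergy B cells, against 114 to 140, and 349 in control germinal centre B cells, against 145 to 167. Ddit3 in control germinal centre B cells was at 84.5 on date 3, against 18.6 to 37.0.

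The allergy effect in lamina propria plasma cells differed from the mean effect in 8 other classes for Herpud1 by 1.21 and for Hspa5 by 0.48 on the log2 scale, in the test of the difference itself. Both conditions were represented on each date, and Herpud1 in plasma cells had opposite signs on the 2 dates (0.91 on date 6 and -0.42 on date 7).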

How the results depend on the processing

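Over 170 combinations of a named gene and a comparison, 2414 alternative values were computed; 2313 stayed on their side of the threshold, 75 lost the call and 26 gained it. No call turned to the other direction, and 113 values that were called in neither setting had the other sign. Counts of called members moved by more than 1.5 times as follows. For CGRP against base (1), DESeq2 called 6, no filter on low counts 4, and leaving out 1 library gave 0 to 4. For CGRP with IL-25 against IL-25 (0), DESeq2 called 2, and leaving out 1 library gave 0 to 1. For allergy in lamina propria plasma cells (5), no filter gave 12, no date term 0, immunoglobulin genes kept 1, and leaving out 1 library 1 to 8. Among the classes with 0 called members, plasmablasts gave 1 without a filter, pDCs 2 with the stricter and 2 with the more lenient gate, and ILC2s 1 without a filter, 1 with cells of at least 1000 UMIs and 1 with the more lenient gate; leaving out 1 library gave 0 to 1 in each and in mast cells. For Peyer's patch germinal centre B cells with allergy (1), DESeq2, no filter, no date term, immunoglobulin genes kept, the stricter gate and the more lenient gate each gave 0, and leaving out 1 sum gave 0 to 1. The difference in allergy effect (2) gave 1 to 2. The cause of these moves was not tested. Counts between classes stayed within 1.5 times, and leaving out 1 library gave 37 to 37 for plasma cells, 26 to 29 for pDCs, 8 to 10 for mast cells, 18 to 21 for plasmablasts, 19 to 26 for germinal centre B cells and 32 to 34 for Peyer's patch plasma cells. Keeping immunoglobulin genes moved the median of all genes in plasma cells from -0.09 to 0.17.

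With the replicate block, 0 members were called for CGRP against base. Bulk libraries of the same number did not deviate together: r was -0.141 to 0.128 (median 0.00971) over 18 pairs with the same number and -0.245 to 0.200 (median -0.00826) over 45 pairs with different numbers, so the numbers were not taken to pair samples. The gate as first written left too few control mast cells and plasmablasts for an allergy test, and the stricter gate and the minimum of 1000 UMIs could not be run for Peyer's patch plasma cells nor the stricter gate for ILC3s. Depth limits the members of low level: Mzb1 was not tested in bulk, and 16 to 37 members were tested per class.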
